A study of Canis lupus familiaris with 28 samples.

Results

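Interferon gamma is the cytokine with which T cells and natural killer (NK) cells activate macrophages. It binds a receptor that contains the IFNGR1 chain, and the signal switches on the transcription factor IRF1, which drives genes for antigen presentation and for interferon-induced GTPases. STAT2 carries the signal of the other, type I interferons, A20 (encoded by TNFAIP3) limits NF-kB signalling, and syntaxin 11 (STX11) is a vesicle fusion protein that cytotoxic cells need to release their granules. Inherited loss of STX11 causes a familial hemophagocytic lymphohistiocytosis, a disorder in which activated macrophages engulf blood cells.

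The 6 genes described here are IFNG, IFNGR1, IRF1, STAT2, TNFAIP3 and STX11, out of 32704 genes in the count tables. They were chosen by symbol, and each symbol was paired with exactly 1 Ensembl identifier in lists that accompany the study. A dog symbol paired 5 of them (IFNG ENSCAFG00000000408, IFNGR1 ENSCAFG00000000260, IRF1 ENSCAFG00000000851, TNFAIP3 ENSCAFG00000000267 and STX11 ENSCAFG00000000322). The name of the human homolog paired the remaining 1, STAT2 (ENSCAFG00000000121). In the gene order of RefSeq, IFNG lies beside IL26 and IL22, IRF1 beside IL5, STAT2 beside IL23A, and IFNGR1 and TNFAIP3 are separated only by OLIG3.

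The study sequenced RNA from histiocytic sarcomas of Bernese Mountain Dogs, a cancer of the macrophage and dendritic cell lineages. The tumors were 15 histiocytic sarcomas (HS) and 3 hemophagocytic histiocytic sarcomas (HHS), the form in which the tumor cells engulf blood cells. HHS tumor HS41 came from a lymph node, HS46 from liver and HS53 from lung, and the HS tumors came from lung, liver, spleen, thorax, a leg mass and a shoulder. The controls were blood from 3 Bernese Mountain Dogs and spleen, lung and liver, 1 library each, from German Shepherd Dogs. Cultured cells were counted in a table of their own. They were the histiocytic sarcoma lines BD and OD (from Bernese Mountain Dogs) and PJ (from a Rottweiler), and DC3F9, dendritic cells grown from monocytes of a mongrel with GM-CSF and IL-4, each 1 library. The label of the DC3F9 library adds "unstim", read here as unstimulated.

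Levels are given in CPM, the count of a gene scaled to the total count of its library. The tumors held 99701394 to 171815073 counts, so that 3 counts, the limit used here for detection, equalled about 0.02 CPM. The labels of the blood controls begin with HT5GWDSXX and those of all other tissue libraries with HVTWLDSXX, read here as names of flow cells. On that reading, flow cell, breed and tissue cannot be told apart among the controls. The liver control was left out of the main comparisons, which thus used 5 controls. Its 5 hepatocyte markers summed to 6919 CPM, against 1.04 to 94.2 CPM in the tumors. In bulk tissue, fewer cells of a type and less RNA per cell cannot be told apart. A gene was called changed at a log2 fold change beyond 1.5 and an adjusted p under 5e-04 for all tumors against controls, or under 0.05 in the other comparisons. All p-values of these comparisons are from edgeR's quasi-likelihood test with Benjamini-Hochberg adjustment over all genes tested, unless another tool is named.

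IFNG was the most variable of the 6 genes among the tumors. In the 15 HS tumors it ran from 0.0074 CPM (1 count, HS14) through a median of 0.931 CPM to 14.8 CPM (HS50). In the HHS tumors it stood at 1.65 CPM in HS41, 4.78 CPM in HS46 and 0.164 CPM in HS53. The 3 hemophagocytic tumors thus lay inside the HS range, at ranks 8, 2 and 15 from the highest of 18.

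The blood controls held 0.133, 1.95 and 1.27 CPM of IFNG, the spleen control 0.559 CPM, the lung control 0.325 CPM and the liver control 0.0111 CPM (2 counts). All 5 controls of the main comparisons lay within the tumor range. The tumors exceeded the 5 controls by 1.56 ± 1.09 (SE) on the log2 scale, a difference that did not pass (adjusted p = 0.299, edgeR).

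The receptor chain IFNGR1 was among the steadier genes. HS tumors ran from 138 CPM (HS14) through a median of 314 CPM to 806 CPM (HS37), and the HHS tumors held 268, 312 and 399 CPM. The blood controls held 377, 393 and 342 CPM, the lung control 393 CPM and the spleen control 201 CPM. All 5 controls lay within the tumor range, and the log2 difference was 0.25 ± 0.36 (SE, adjusted p = 0.637, edgeR).

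IRF1, the transcription factor induced by interferon gamma, ran in HS tumors from 61.2 CPM (HS14) through a median of 179 CPM to 771 CPM (HS50). It stood at 335 CPM in HS41, 487 CPM in HS46 and 35.5 CPM in HS53, the lowest value of all 18 tumors. The blood controls were high, at 463, 715 and 582 CPM, and the spleen and lung controls lower, at 163 and 107 CPM. The tumors spread from below the lung control to above the highest blood control. Against all 5 controls the log2 difference was -0.55 ± 0.51 (SE, adjusted p = 0.442, edgeR).

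STAT2 ran in HS tumors from 18.4 CPM (HS29) through a median of 89.6 CPM to 281 CPM (HS50), and stood at 42.6 CPM in HS41, 243 CPM in HS46 and 116 CPM in HS53. The blood controls held 309, 230 and 205 CPM, and the spleen, lung and liver controls 127, 125 and 136 CPM. Most tumors lay below the controls, but the highest reached the blood levels, and the log2 difference of -0.90 ± 0.42 (SE) did not pass (adjusted p = 0.109, edgeR).

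TNFAIP3, which encodes the NF-kB inhibitor A20, ran in HS tumors from 16.5 CPM (HS27) through a median of 64.2 CPM to 157 CPM (HS51). HS41 held 42.1 CPM, HS46 120 CPM and HS53 109 CPM. The blood controls held 47.4, 46.7 and 34.9 CPM, the spleen control 44.5 CPM and the lung control 24.3 CPM. Most tumors were above the highest control, and some HS tumors were below the lowest. The log2 difference of 0.96 ± 0.40 (SE) did not pass (adjusted p = 0.0744, edgeR).

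STX11 was the only member called between tumors and controls. HS tumors ran from 1.28 CPM (HS29) through a median of 10.1 CPM to 27.3 CPM (HS51), and HS41, HS46 and HS53 held 5.70, 9.15 and 5.67 CPM. The blood controls held 224, 60.8 and 81.4 CPM. Spleen and lung held 8.87 and 12.5 CPM, and liver 0.265 CPM. Every tumor lay below every blood control, and the spleen and lung controls lay in the middle of the tumors.

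**Figure D1:**
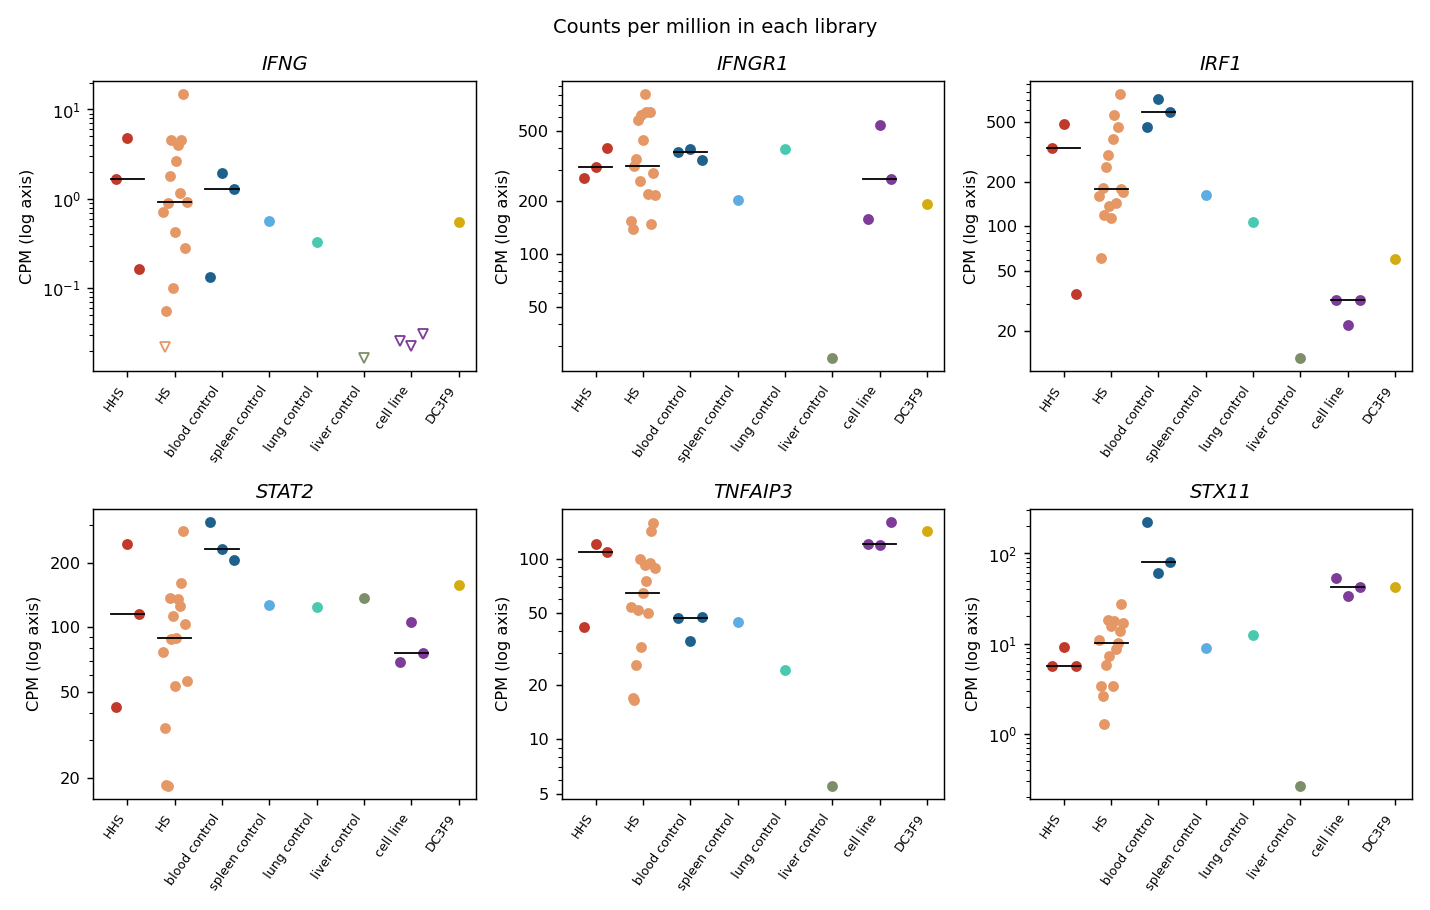
CPM of each member (log axis) in every library, by group, with a black line at the median of groups of more than 1 library. Open triangles stand at 3 counts for libraries with fewer. The 3 blood controls lie above all 18 tumors for STX11 (60.8 to 224 CPM against at most 27.3 CPM), and the cell lines show no IFNG beyond 1 count.

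Whether tumors differ from normal tissue was asked with 3 comparisons that share the same 5 controls. In all 18 tumors STX11 fell by 2.95 on the log2 scale (SE 0.51, adjusted p = 2.8e-04, edgeR), and 2.77% of the 19430 genes tested were called. In the 15 HS tumors STX11 fell by 2.88 (SE 0.56, adjusted p = 0.00131, edgeR), where 17% of all genes were called. In the 3 HHS tumors the STX11 difference was -3.55 (SE 1.19, adjusted p = 0.171, edgeR), and 0.134% of all genes, but no member, were called. That count of 0 rests on the tool. At an unadjusted p under 0.05 there were 2 of the 6 members (STX11 lower, TNFAIP3 higher), beside 3775 of the 18643 genes tested. DESeq2 called 1 member, STX11, and 2159 of the 18643 genes. The median log2 difference over the 6 members was -0.15 in all tumors, beside -0.01 over all genes tested. It was -0.18 in HS tumors (all genes -0.05) and -0.27 in HHS tumors (all genes -0.17).

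The STX11 result depended on which controls were used. Against the blood controls alone it fell by 3.61 in all tumors (SE 0.47, adjusted p = 6.4e-06, edgeR). There, 3.14% of 20353 genes were called lower, and 7.45% had every tumor below every blood control. Against the spleen and lung controls, which shared the tumors' flow cell, the log2 difference was 0.14 ± 0.71 (SE, adjusted p = 0.927, edgeR). The blood controls exceeded the spleen and lung controls in STX11 by 3.78 (SE 1.00, adjusted p = 0.0122, edgeR with the tumors in the same fit), a comparison in which 13% of all genes were called. This comparison was added after the values were seen. The strict call in all tumors was also lost without each single blood control in turn, at -1.98 without blood control 1, which held 224 CPM, and at -3.01 and -2.97 without the others.

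Markers of blood leukocytes, like STX11, were higher in the blood controls than in the spleen and lung controls. The 5 neutrophil and monocyte markers (NCF4, CSF2RB, LYZ, RAC2 and NFAM1) summed to 10062 to 13351 CPM in blood, 1513 CPM in spleen and 519 CPM in lung, against 610 to 7446 CPM in HS and 1158 to 5199 CPM in HHS tumors. The 7 T and NK cell markers summed to 944 to 1431 CPM in blood, 295 CPM in spleen, 66.9 CPM in lung, 38.6 to 330 CPM in HS and 70.3 to 150 CPM in HHS tumors. The 3 erythroid and platelet markers split alike, at 47.9 to 115 CPM in blood, 7.51 CPM in spleen and 3.08 CPM in lung. Within each kind of control the order differed. Spleen exceeded lung in all 3 sums but held less STX11 (8.87 against 12.5 CPM). Blood control 2 had the highest neutrophil and monocyte sum and the lowest STX11 of the blood controls (60.8 CPM). Of the 5 myeloid markers 4 were called higher in blood than in spleen and lung, and none of the 5 was at 0 in any tumor group. The part of these cells in the STX11 result was not tested.

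**Figure D2:**
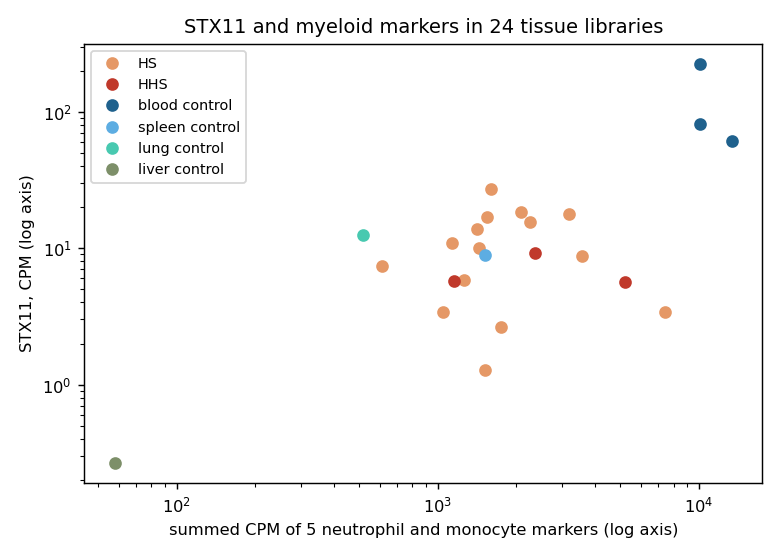
STX11 CPM against the summed CPM of 5 neutrophil and monocyte markers, both on log axes, in the 24 tissue libraries. The 3 blood controls stand alone at the upper right (10062 CPM or more of marker counts), the liver control at the lower left, and the spleen and lung controls among or beside the tumors.

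IRF1 and STAT2 followed the same split of the controls, without a call. IRF1 differed by -1.10 ± 0.54 (SE) from blood and by 1.21 ± 0.80 from spleen and lung (adjusted p = 0.12 and 0.374, edgeR). Its direction thus turned with the controls. Blood exceeded spleen and lung by 2.34 ± 0.94 for IRF1 and by 1.23 ± 0.80 for STAT2, and neither passed (adjusted p = 0.0982 and 0.336, edgeR). STAT2 differed by -1.26 ± 0.48 from blood (adjusted p = 0.0487, edgeR, with the size under the fold cutoff) and by -0.07 ± 0.65 from spleen and lung. IFNG, IFNGR1 and TNFAIP3 kept a positive difference against either kind of control, but that of IFNGR1 against blood was near 0. It was 0.05 ± 0.44 (SE) against blood and 0.60 ± 0.57 against spleen and lung (adjusted p = 0.938 and 0.555, edgeR). The TNFAIP3 value was 0.78 ± 0.50 against blood and 1.28 ± 0.65 against spleen and lung (adjusted p = 0.225 and 0.24, edgeR). Against blood alone the median gene was higher in the tumors by 0.44, and against spleen and lung by 0.08.

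**Figure D3:**
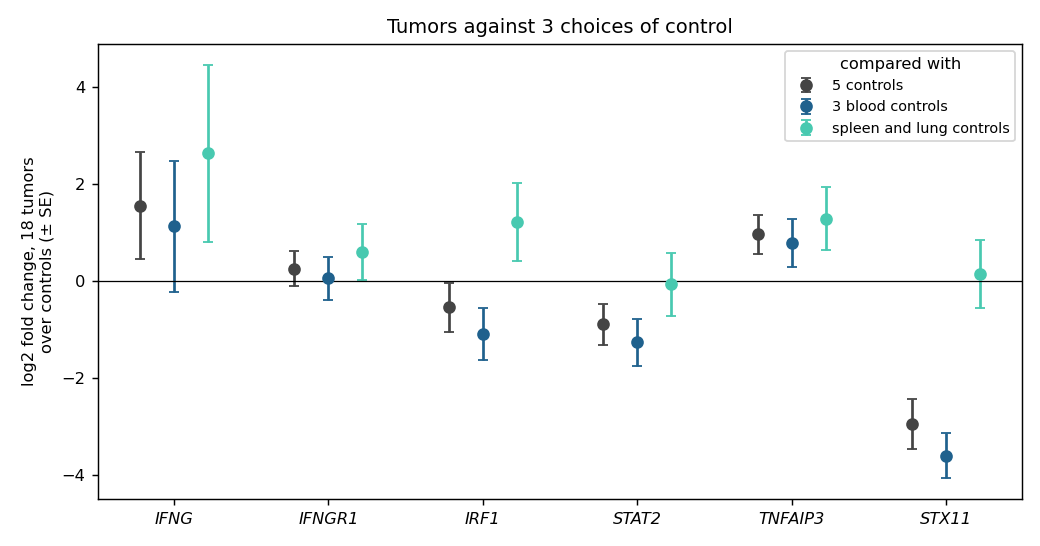
Log2 fold change of the 18 tumors over 3 sets of controls for each member, with bars of ± 1 SE from edgeR. STX11 goes from -3.61 against blood to 0.14 against spleen and lung, and IRF1 from -1.10 to 1.21.

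Genes related to STX11 by function were followed in a list of 6 vesicle fusion genes, 5 of which could be tested. None was called in all tumors. In HS tumors, where 17% of all genes were called, 2 were called lower, STXBP5 (syntaxin-binding) and SYTL3 (a synaptotagmin-like protein of secretory granules). They differed by -1.51 ± 0.50 and -1.87 ± 0.56 (adjusted p = 0.0304 and 0.0188, edgeR). STXBP5, just past the fold cutoff, lost its call in 8 of 17 alternatives and turned in 1, to 0.36 against spleen and lung only. The median of the tested genes in HS tumors was -1.51 against the 5 controls, -0.18 against blood only and -0.01 against spleen and lung only, beside -0.05, 0.40 and 0.07 over all genes. Against blood only, 2 list genes were called lower in HS tumors, beside 1881 of 20020 genes tested. Against spleen and lung only none was called. The list median was thus lowest against the mixed set of controls, while calls were also present against blood alone.

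Around TNFAIP3, a list of 9 NF-kB genes held 1 called gene in HS tumors, IRAK3, an inhibitor of Toll-like receptor signalling, which fell by 1.68 (SE 0.45, adjusted p = 0.010, edgeR), where 17% of all genes were called. SQSTM1, an autophagy receptor, had a positive difference of 1.46 (SE 0.30, adjusted p = 0.0019, edgeR), under the fold cutoff. None was called in all tumors. The list median turned with the controls, from -0.58 in HS tumors against 5 controls to 0.61 against blood only and -0.25 against spleen and lung only. The median over all genes moved too, at -0.05, 0.40 and 0.07. Against blood only, SQSTM1 and TNFRSF11A were called higher and IRAK3 and MALT1 lower, beside 5095 of 20020 genes tested. Of 10 lymphocyte and macrophage cytokines, 6 were tested. In HS tumors 2 were called lower, IL23A (-1.77, adjusted p = 0.0052) and IL13 (-3.09, adjusted p = 0.0297, edgeR), and IL13 turned to a positive difference without the spleen control or against blood alone.

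The direct comparison of HHS with HS tumors asks whether the genes set the hemophagocytic form apart. No member was called, and 0% of the 19853 genes tested were called by edgeR. At an unadjusted p under 0.05 there were 797 genes, none of them a member, and DESeq2 called 1 gene, which was no member. The differences on the log2 scale, HHS minus HS, with 95% intervals, were -0.10 (-2.81 to 2.61) for IFNG and -0.31 (-1.33 to 0.70) for IFNGR1. They were 0.14 (-1.18 to 1.46) for IRF1 and 0.45 (-0.69 to 1.59) for STAT2. For TNFAIP3 the difference was 0.34 (-0.68 to 1.35), and for STX11 it was -0.66 (-1.98 to 0.66). All 6 intervals included 0 and also differences of more than 1 in at least one direction. Adjusted p-values ran from 0.943 for STX11 to 0.996 for IFNG (edgeR).

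The 3 HHS tumors differed among themselves by more than the groups did. HS46, from liver, ranked 2 of 18 for IFNG, 3 for IRF1, 2 for STAT2 and 3 for TNFAIP3. HS53, from lung, ranked 15 for IFNG and 18 for IRF1, but 4 for TNFAIP3. HS41, from a lymph node, ranked 6 for IRF1, 14 for TNFAIP3 and 15 for STAT2. STX11 ranked 9 in HS46, 13 in HS41 and 14 in HS53.

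Direction followed single HHS tumors for 3 members. Without HS46 the difference became -1.38 for IFNG, -0.50 for IRF1 and -0.36 for STAT2, and without HS53 it became 0.45 for IFNG and 0.66 for IRF1. Among the liver and lung tumors alone, with tissue in the fit, IFNG differed by -1.29 ± 1.76 (SE) and IRF1 by -0.74 ± 0.92 (adjusted p = 0.958 and 0.954, edgeR).

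The interferon-induced genes likewise did not set the HHS tumors apart. Their 14 summed levels were 1174 CPM in HS53, the lowest of all tumors, 13178 CPM in HS41 and 16890 CPM in HS46, against 3629 to 52675 CPM in the HS tumors. Class II genes weighed heavily in this sum. In HS39, at its upper end, DLA-DRA held 21446 CPM and HLA-DRB1 16576 CPM. The sum did not follow IFNG in every tumor, since HS14, with 1 count of IFNG, had 32309 CPM. None of the 14 was called between HHS and HS, and the median difference was -0.17 beside -0.12 over all genes. HS53 had a neutrophil and monocyte marker sum of 5199 CPM, the highest of the 3.

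Across the 18 tumors IFNG and IRF1 rose and fell together. Spearman's rho of their log2 CPM was 0.833 and Pearson's r 0.822 (permutation p = 8e-05 and 6e-05, 100000 resamples, two-sided; adjusted p = 0.00168 and 0.00126 over 21 relations). Without HS14 and HS27, the tumors farthest from the median of IFNG, r was 0.865. In the 15 HS tumors alone rho was 0.789 (adjusted p = 0.0153, permutation test), with CPM rescaled by the TMM method 0.849, and without HS50 0.802. Within the 6 lung tumors, the largest set from 1 tissue, rho was 0.314 and r 0.572 (exact permutation p = 0.564 for rho), so the relation was not shown within that tissue. The other tissues held at most 4 tumors.

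IFNG also rose with the summed T and NK cell markers (rho 0.639, r 0.654, permutation adjusted p = 0.0209 and 0.0118). HS50 had both the highest IFNG and the highest marker sum, 330 CPM, and HS14 both the lowest IFNG and the lowest sum, 38.6 CPM. Without HS14 and HS27 r was 0.478, and without HS50 the adjusted p was 0.0639 (permutation test). The T and NK sum also went with IRF1 (rho 0.629) and STAT2 (rho 0.666). On TMM-scaled CPM these values were 0.573 and 0.451, and neither passed (adjusted p = 0.0589 and 0.162, permutation test). The sum is not specific to these cells, since it also reached 59.1 CPM in BD, 115 CPM in OD, 29.7 CPM in PJ and 34.9 CPM in DC3F9. In the cell lines nearly all of it was TAGAP (9.66 to 99.1 CPM) and GRAP2 (1.29 to 19.6 CPM), while IL2RB, THEMIS, TCF7 and SAMD3 were each at most 0.175 CPM and CD226 at most 0.601 CPM. Taken one by one, as a description over the 18 tumors, the markers had a rho with IFNG of 0.818 for THEMIS, 0.752 for CD226, 0.730 for IL2RB and 0.558 for TCF7. For TAGAP, GRAP2 and SAMD3, the last at 0 in most tumors, it was 0.300, 0.100 and 0.0568. The part of T and NK cells in the IFNG level was not tested.

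**Figure D4:**
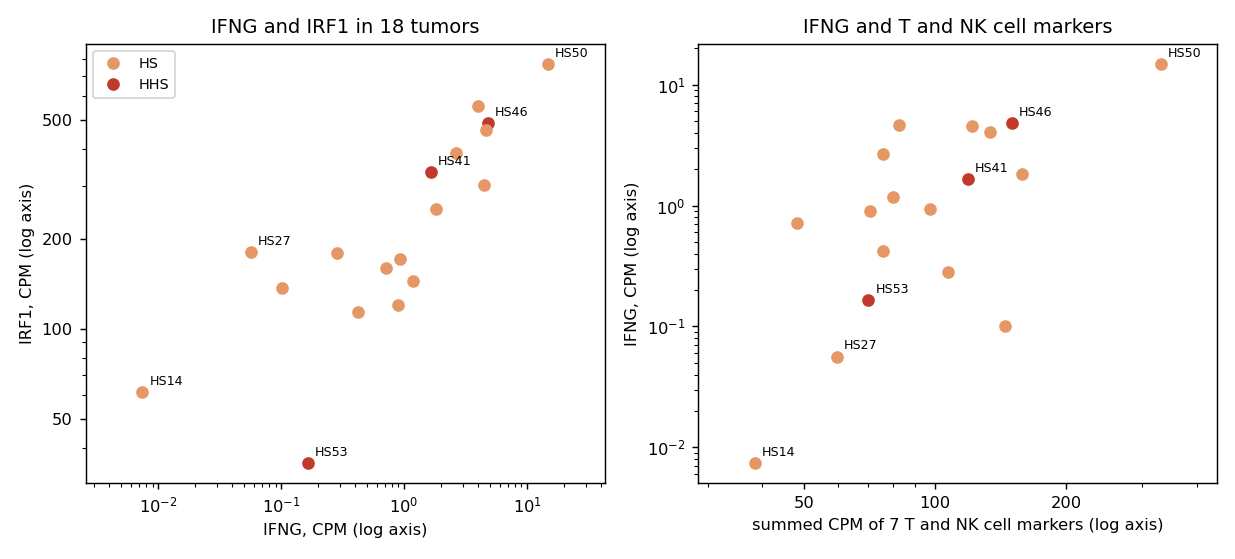
IRF1 against IFNG (left) and IFNG against the summed CPM of 7 T and NK cell markers (right) in the 18 tumors, all axes log CPM. The HHS tumors in red span the scatter from HS53 (0.164 CPM of IFNG) to HS46 (4.78 CPM), and HS50 and HS14 mark its ends.

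In all, 9 of the 21 relations (15 pairs of members and 6 with the marker sum) passed an adjusted p of 0.05 on raw-count CPM. Only 1 of the 21, IFNG with IRF1, passed with TMM-scaled CPM, and the same single relation passed without HS50. Among those that did not, the rho of TNFAIP3 with STAT2 was 0.633 on raw-count CPM and 0.614 on TMM-scaled CPM (adjusted p = 0.058, permutation test). With STX11 it was 0.614 and 0.560 (adjusted p = 0.0606), and that of IFNG with the marker sum was 0.639 and 0.608 (adjusted p = 0.058). The calls of these relations thus lay close to the threshold, and their values moved little. Other lost calls came with larger shifts. The rho of STAT2 with the marker sum went from 0.666 to 0.451 (adjusted p = 0.162, permutation test). That of IRF1 with STAT2 went from 0.548 to 0.401 (adjusted p = 0.236, permutation test). IFNGR1 had a rho between -0.181 and 0.220 with the other members and the marker sum, and none passed.

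The genes most like each member over the 18 tumors were sought among up to 764 genes with a name and at least 1 log2 CPM on average, as a description, since all levels share the same libraries. IFNG was nearest to IFGGC1 (rho 0.889) and IRGM (rho 0.887), both of the family of interferon-induced GTPases, and then to IRF1. IRF1 was nearest to IRGM (rho 0.938), SLC25A48 (rho 0.913) and the interferon-induced ETS factor ETV7 (rho 0.897). On TMM-scaled CPM the values for these IFNG and IRF1 neighbors stayed between 0.849 and 0.905.

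STAT2 was nearest to DMXL1 (rho 0.909), the RNA helicase gene DDX46 (rho 0.895) and the nuclear matrix gene MATR3 (rho 0.893), but 34.2% of all genes compared had a rho above 0.5 with STAT2, against 8.51% with IFNG. TNFAIP3 was nearest to RNF146 (rho 0.812, and 0.616 on TMM-scaled CPM), RPAP2 and CANX. STX11 was nearest to HNRNPA0 (rho 0.738, and 0.641 on TMM-scaled CPM), CDKN2AIPNL and RNF146 (rho 0.707, and 0.591), and IFNGR1 to NRF1 (rho 0.746), MAP3K4 and VPS52.

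The 14 interferon-induced genes had a median rho of 0.362 with IFNG, beside 0.117 over all genes compared, and of 0.568 with IRF1, beside 0.0836. With IRF1 all 14 had a positive rho, from 0.174 for HLA-DRB1 to 0.938 for IRGM. With IFNG 13 were positive, led by the GTPases, ETV7 (rho 0.792) and the peptide transporter gene TAP1 (rho 0.726), while the class II gene HLA-DRB1 stood at -0.115. With STX11, IFNGR1 and STAT2 the list medians were 0.429, 0.0454 and 0.317, beside 0.195, 0.0712 and 0.302 over all genes compared. With TNFAIP3 the list median was 0.299, beside 0.220. The gap between the list and all genes compared was thus widest with IRF1, and with IFNGR1 and STAT2 the list stood near all genes.

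Against controls, 10 of the 14 interferon-induced genes were higher in the tumors, with a median of 0.51 beside -0.01 over all genes, and none was called in all tumors. Against blood only the median was 0.48 beside 0.44 over all genes, and against spleen and lung only it was 1.14 beside 0.08. ETV7 had 18.5 to 152 CPM in HS tumors (median 49.6), 92.0, 107 and 13.5 CPM in HHS tumors and 11.6 to 33.5 CPM in the 5 controls. It rose by 1.502 in HS tumors (SE 0.43, adjusted p = 0.0148, edgeR), just past the fold cutoff, and was under it with other scalings (1.44 with DESeq2). In all tumors its difference was 1.61 (adjusted p = 0.0151, edgeR), past an adjusted p of 0.05, a limit that 17.8% of all genes passed together with the fold cutoff, but not past 5e-04. The 6 tested T and NK markers (CD226, IL2RB, THEMIS, GRAP2, TCF7 and TAGAP) were all called lower in HS tumors, beside 1915 of 19112 genes. Their median was -3.39, beside -0.05 over all genes. In all tumors 2 of them, GRAP2 and TCF7, were called, and against spleen and lung only TCF7 was called in HS tumors.

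In the 3 cell lines IFNG was all but absent. BD and OD had no count, PJ had 1 count (0.0103 CPM), and 3 counts would equal 0.0228 to 0.0308 CPM in these lines. DC3F9 had 45 counts, 0.549 CPM. The pooled ratio of DC3F9 to the lines was 190, with an exact 95% interval of 32.5 to 7684 that covers counting error only. The comparison rests on 1 control library.

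IRF1 stood at 32.1 CPM in BD, 21.96 CPM in OD and 32.3 CPM in PJ, below the 60.7 CPM of DC3F9 and below every tumor. The share of all genes that separate the lines from the tumors was not counted. STAT2 was 68.8, 106 and 76.0 CPM in the lines and 157 CPM in DC3F9. IFNGR1 was 157, 536 and 264 CPM in the lines and 191 CPM in DC3F9. The receptor was thus as high in the lines as in tumors, on values set side by side from tables counted separately and without a test.

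TNFAIP3 was 120, 118 and 159 CPM in BD, OD and PJ and 141 CPM in DC3F9. STX11 was 53.0, 34.0 and 42.8 CPM in the lines and 42.2 CPM in DC3F9, above every tumor and below every blood control. This too sets separately counted tables side by side, without the share over all genes. Among the cultured cells, 3 of the 6 members (IFNG, IRF1 and STAT2) were lower in all 3 lines than in DC3F9, which held for 19% of the 18121 genes tested. None was higher in all 3, which held for 46.3% of genes.

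No member was called between the lines and DC3F9 by edgeR, where 0% of all genes were called. Unadjusted, 2788 genes and 3 of the 6 members had a p under 0.05. The adjusted p was 0.158 for IFNG and, with a log2 difference of -1.55 ± 0.42 (SE), 0.218 for IRF1. For STAT2 it was 0.24 with a difference of -1.38 ± 0.40 (edgeR). DESeq2 called 10.2% of all genes and 2 members, IFNG (adjusted p = 0.0321) and IRF1 (adjusted p = 0.0496). The difference was 0.28 for IFNGR1, -0.44 for STX11 and -0.56 for TNFAIP3 (adjusted p = 0.884, 0.65 and 0.519, edgeR). Over all genes the median difference was 0.23, and 0.69 with library totals in place of TMM, under which STX11 turned to 0.03.

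The interferon-induced genes were low in the lines too. Of the 13 that could be tested 12 were lower than in DC3F9, with a median difference of -1.94 beside 0.23 over all genes, and none was called by edgeR. The exception was ETV7, at 8.67 to 14.9 CPM against 4.43 CPM. These differences are TMM-scaled. On raw-count CPM the line medians of TAP1 (97.7 CPM) and TAP2 (71.5 CPM) were also above DC3F9 (89.5 and 59.5 CPM). DLA-DRA, a class II antigen-presenting chain, ran from 5.45 to 396 CPM in the lines, with a median of 33.0 CPM, against 1580 CPM in DC3F9 and a median of 3925 CPM in HS tumors. The immunoproteasome gene PSMB8 had 1.13 to 29.4 CPM in the lines and 52.5 CPM in DC3F9. DESeq2 called 1 gene of the list, the class I gene DLA88 (-2.92, adjusted p = 0.0399), and 1 cytokine in the other direction, TNF (3.89, adjusted p = 0.0018).

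**Figure D5:**
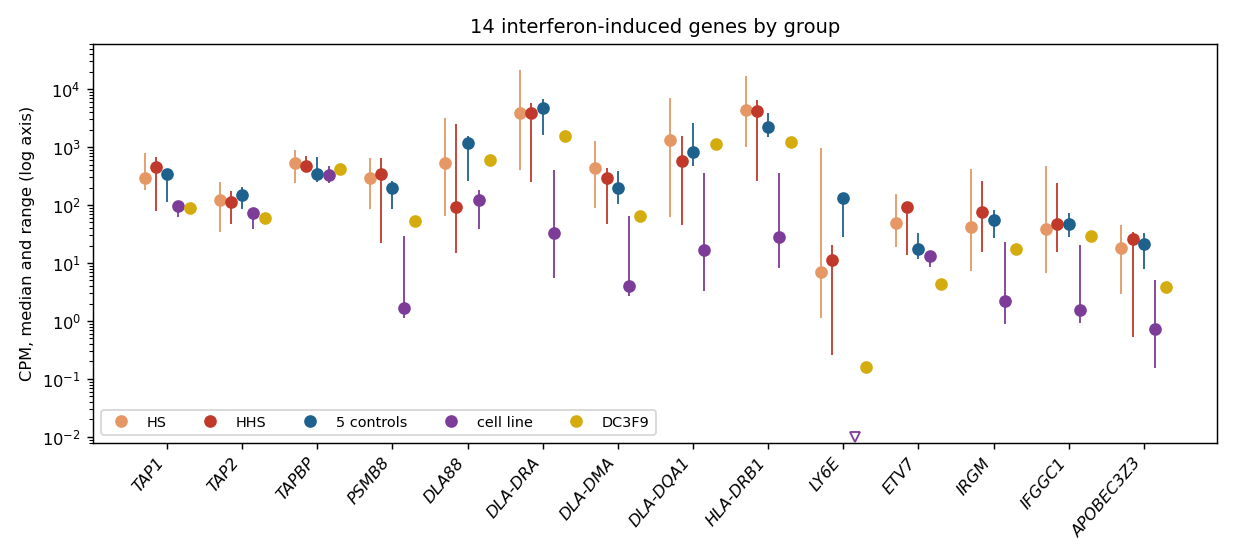
Median CPM (points) and range (lines) of 14 interferon-induced genes by group, on a log axis, with an open triangle for a median of 0. Class II genes, PSMB8 and the GTPases IRGM and IFGGC1 have medians between 1.53 and 33.0 CPM in the cell lines, below DC3F9 and all tumor medians.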

How the data were processed

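RNA-seq was used in 28 libraries. The authors deposited raw read counts per gene, in 1 table for tissues and 1 for cells. Per the submitters' processing notes, cutadapt 3.7, FastQC 0.11.9, STAR 2.7.10a, HTSeq 2.0.0 and DESeq2 1.20 were named, with the CanFam3.1 genome. The library kit of the cells is stated differently in 2 sources, so no test crossed the tables.

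Counts were analysed as deposited in edgeR 4.0.16 (R 4.3.3) with TMM scaling, its low-count filter and the quasi-likelihood test. The self-test used simulated counts. DESeq2 1.42.0, other scalings, filters, adjustments and control sets and each left-out replicate were alternatives. Intervals are the fold change ± the t quantile times the SE. Replicates are separate dogs or lines as labelled, and no pair of libraries was duplicated. Names came for 1126 of 32704 genes from the study's lists. Members and gene lists were chosen with earlier results of these data known. Besides members, list genes were named where they passed the cutoffs, stood at the end of a list's range or had a mean over 1 CPM, as were the 3 most alike genes per member. Relations used log2 CPM with a prior count of 2.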

Additional observations from a re-analysis of the deposited data

Results flagged for a closer look

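The spleen control held 201 CPM of IFNGR1, far below the other 4 of the 5 controls, which lay close together. Its gap to the next control was 0.733 of the whole range, above the 0.71 that Dixon's test allows for 5 values. Among 5 values from 1 population, chance alone gives such a gap in about 1 group of 20, and 6 genes were examined. These controls were blood, spleen and lung from different breeds, so that rate does not carry over to them.

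The tumor difference in STX11 depended on the kind of control, since blood exceeded spleen and lung controls by 3.78 on the log2 scale (SE 1.00, adjusted p = 0.0122, edgeR). Blood differed from those controls in flow cell, breed and tissue, which cannot be told apart.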

How the results depend on the processing

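No paired analysis was possible because the replicate numbers only name samples within a group. Of 783 alternative fold changes of members and called list genes, 693 kept their direction and their side of the cutoffs, 63 lost a call, 4 gained one and 23 turned in direction. The cause was not tested. Members called in all tumors (1) became 0 with Benjamini-Yekutieli adjustment, all 6 controls or spleen and lung controls only, and ranged from 0 to 1 when single controls were left out. In HS tumors 1 became 0 with spleen and lung only. In HHS tumors 0 became 1 with DESeq2 or blood only, and in cell lines 0 became 2 with DESeq2.

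With spleen and lung controls only, STX11 turned to 0.14 (all tumors) and 0.23 (HS), IRF1 to 1.21 (all), 1.19 (HS) and 1.35 (HHS), STAT2 to 0.35 and IFNGR1 to 0.38 (HHS), TAGAP to 0.71 and STXBP5 to 0.36 (HS). IFNGR1 in HHS was 0.12 with all 6 controls. IL13 in HS was 1.35 against blood only. IRF1 in HHS against HS was -0.74 with tissue, STX11 in cell lines 0.035 with library totals, and the rho of IFNGR1 with TNFAIP3 -0.0753 with TMM. Leaving out single libraries gave -3.41 to 0.22 for IL13 in HS, -0.16 to 0.079 for IFNGR1 and -1.17 to 0.12 for IRF1 in HHS, and -1.38 to 0.45 for IFNG, -0.50 to 0.66 for IRF1 and -0.36 to 0.87 for STAT2 in HHS against HS. For IFNGR1 in cell lines it gave -0.34 to 0.61. Only 3 HHS tumors and 1 DC3F9 library limit what could be detected.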
